A study of Mus musculus with 20 samples.

Results

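Skeletal muscle contractile genes were followed in the fat pad of the groin (inguinal white adipose tissue, iWAT), with the pituitary gland as the contrast tissue. The set holds 36 genes, chosen by name from a list of sarcomere, calcium handling and energy genes, of 24062 genes counted in each library, and all 36 were found in the count tables. Poly(A) RNA of chow-fed C57BL/6N males was sequenced in 20 libraries: 5 iWAT libraries labelled Klf14 knockout (KO), 5 iWAT libraries labelled wild type (WT), 5 pituitary libraries labelled KO and 5 pituitary libraries labelled WT. Klf14 encodes a Krüppel-like transcription factor, and the labels give neither how the allele was made nor a tissue restriction. The mice were 18 to 21 weeks old, and the libraries are named here by labelled genotype and mouse number (KO 31, 32, 35, 50 and 66, and WT 33, 34, 48, 49 and 56, in both tissues). KO 50, WT 48 and WT 49 were 19 weeks old, WT 56 was 18 weeks old and the other numbers were 21 weeks old, so 1 of 5 KO mice and 3 of 5 WT mice were younger than 21 weeks.

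A muscle fibre shortens when myosin heads of the thick filament pull on actin of the thin filament, and troponin and tropomyosin on the thin filament make this depend on calcium released from the sarcoplasmic reticulum. Fast and slow fibres build these parts from different genes of the same families. Fat cells and hormone cells have no sarcomere, but the groin fat pad lies next to limb and abdominal wall muscle, and several genes of the set are also used outside skeletal muscle. In bulk tissue, fewer muscle cells and less RNA per muscle cell cannot be told apart.

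Total counts were 14.8 to 18.7 M (mega-counts) in the iWAT libraries and 13.6 to 17.6 M in the pituitary libraries. Levels are given as CPM (counts of a gene per mega-count in all), and levels of different genes are compared only per length, as RPKM (CPM per kilobase of counted exon). Klf14 itself was counted at 30.7 to 38.6 CPM in the pituitary libraries labelled KO and 13.7 to 19.3 CPM in those labelled WT, and at 0.485 to 2.69 CPM and 0.0637 to 2.85 CPM in the iWAT libraries labelled KO and WT, so the counts do not show a loss of Klf14 reads in the libraries labelled KO. Every direction below is therefore between labels. Mouse numbers here are the replicate numbers of the libraries, and no label states that each is a separate animal. The p-values therefore measure only how these libraries scatter, which may be technical. Where mice are counted, the count is of these numbers.

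Promoter sequences are shown for 4 genes that behaved differently from each other: Acta1, which encodes skeletal muscle alpha-actin and had the highest mean level per length of the set in iWAT, Ckm and Myh4, which were near 0 in some fat libraries, and Ttn, whose levels overlapped between the tissues. Each runs 5′ to 3′ on the gene's strand from 250 bases before to 50 bases after the annotated start (RefSeq, GRCm38.p6), with capitals at the E-box CAGCTG, at the CArG box and at the MEF2 consensus, letters known to be read in muscle by MyoD family factors, serum response factor and MEF2 factors.
Acta1, chr8:123894726-123895025, minus strand: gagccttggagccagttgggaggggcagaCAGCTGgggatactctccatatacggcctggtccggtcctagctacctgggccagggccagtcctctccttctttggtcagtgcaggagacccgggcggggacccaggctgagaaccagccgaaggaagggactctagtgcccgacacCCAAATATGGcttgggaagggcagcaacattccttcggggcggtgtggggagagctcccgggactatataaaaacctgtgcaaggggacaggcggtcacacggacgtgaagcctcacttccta
Ckm, chr7:19410844-19411143, plus strand: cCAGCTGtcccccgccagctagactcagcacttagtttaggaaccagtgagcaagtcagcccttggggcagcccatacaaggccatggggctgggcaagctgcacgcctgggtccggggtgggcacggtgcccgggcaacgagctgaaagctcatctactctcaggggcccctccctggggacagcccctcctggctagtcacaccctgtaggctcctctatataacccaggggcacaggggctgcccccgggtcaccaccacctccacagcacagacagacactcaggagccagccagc
Myh4, chr11:67237562-67237861, plus strand: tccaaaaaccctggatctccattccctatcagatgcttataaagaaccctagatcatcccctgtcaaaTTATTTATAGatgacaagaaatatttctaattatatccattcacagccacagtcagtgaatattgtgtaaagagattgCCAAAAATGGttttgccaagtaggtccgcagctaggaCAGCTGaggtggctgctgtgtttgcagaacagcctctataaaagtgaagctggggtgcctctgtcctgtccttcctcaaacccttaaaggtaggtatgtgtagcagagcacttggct
Ttn, chr2:76982498-76982797, minus strand: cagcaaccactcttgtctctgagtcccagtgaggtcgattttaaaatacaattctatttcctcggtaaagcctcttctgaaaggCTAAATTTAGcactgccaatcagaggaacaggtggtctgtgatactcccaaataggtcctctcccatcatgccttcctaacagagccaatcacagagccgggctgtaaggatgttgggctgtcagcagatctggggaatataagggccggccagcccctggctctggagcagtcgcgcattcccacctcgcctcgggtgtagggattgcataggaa

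All 3 motifs read the same way on both strands, and no 2 of them overlapped in any window. Windows were found for 30 of the 36 genes, 37 windows in all. The E-box CAGCTG was in 54.1% of the windows of the set and in 16.3% of all 32851 windows of the same length. The CArG box was in 10.8% and 1.63% of them, and the MEF2 consensus in 16.2% and 3.19%. The Myh4 window held all 3, with the MEF2 match starting 182, the CArG box 104 and the E-box 67 bases before the start. These counts describe letters and say nothing of which factor was bound.

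The set took 0.0174% to 0.22% of all counts in iWAT and 0.0546% to 0.0733% in the pituitary. Its summed level was 2202, 552, 959, 174 and 846 CPM in iWAT KO 31, 32, 35, 50 and 66, against 685, 636, 908, 287 and 497 CPM in iWAT WT 33, 34, 48, 49 and 56. KO 31 held the highest sum and KO 50 the lowest, so both extremes carried the same label, and the 10 libraries spanned 12.7-fold. The pituitary libraries held 609 to 733 CPM under the KO label and 546 to 662 CPM under the WT label, a range that lay inside that of iWAT. At these depths counting error on the shares was small: the 95% Wilson interval of the lowest, in iWAT KO 50, began at 0.0168% (counting error only).

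**Figure D1:**
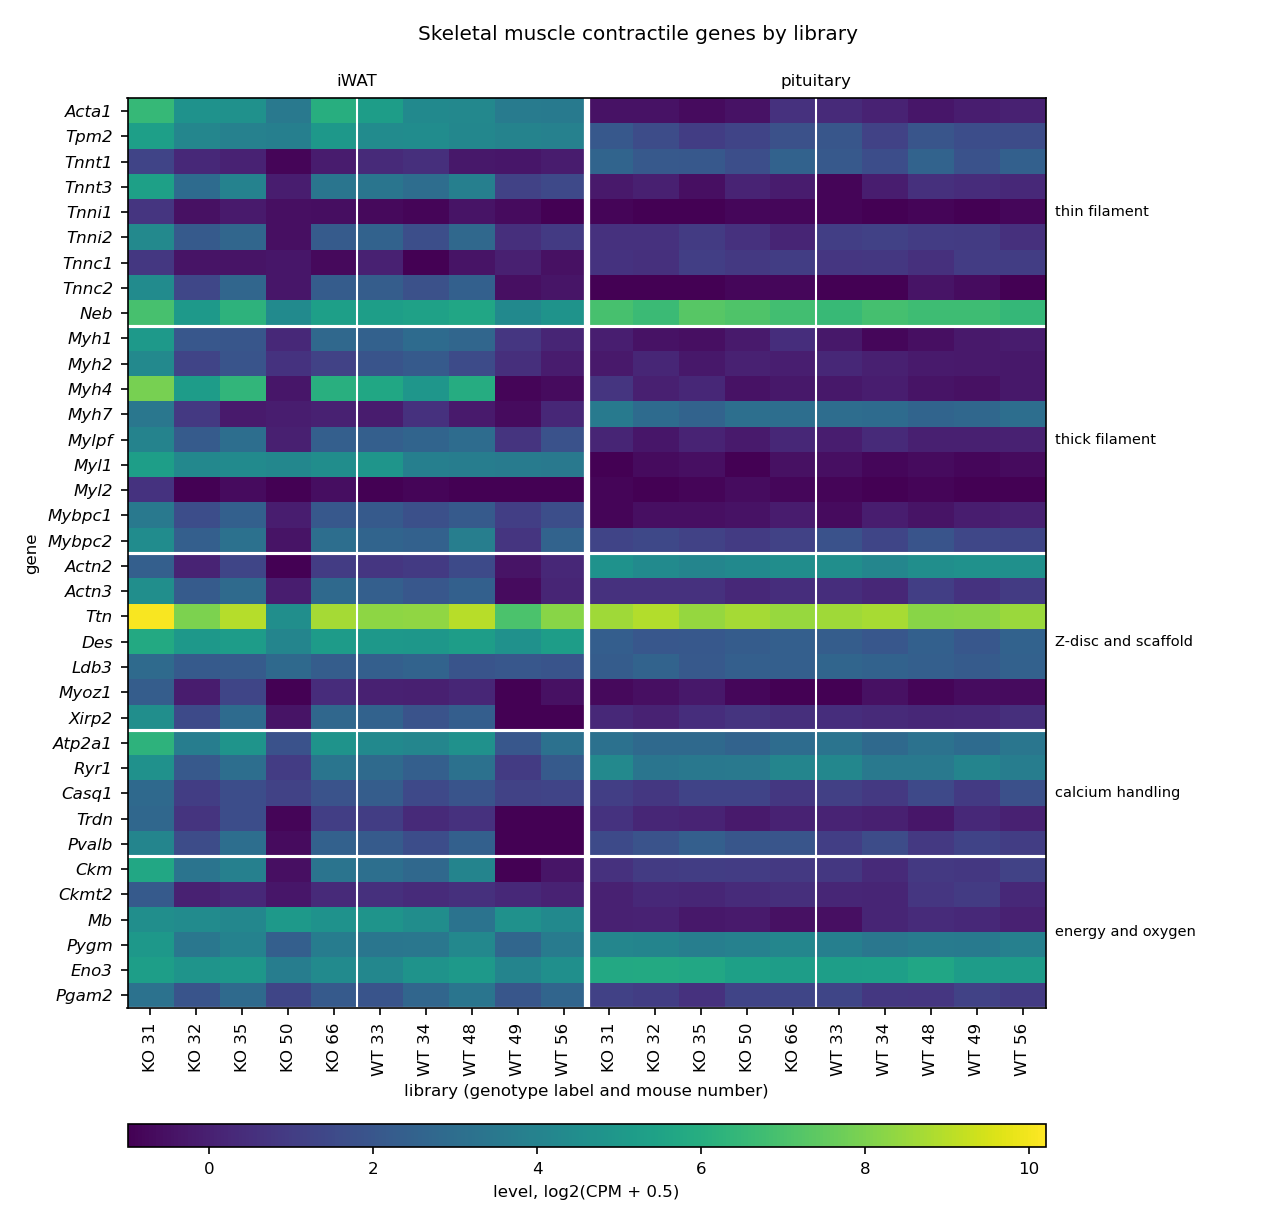
Level of each of the 36 genes, as log2(CPM + 0.5) in colour, in 20 libraries (columns; iWAT left of pituitary, KO left of WT within a tissue), with genes in rows grouped by role. iWAT KO 31 is bright in most rows, iWAT KO 50, WT 49 and WT 56 are dark in the Myh4, Ckm, Xirp2 and Pvalb rows, and Ttn, Neb, Actn2, Eno3 and Ryr1 are bright in every pituitary column.

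The sum hides unlike genes. Ttn encodes titin, the spring protein that spans from Z-disc to M-line, and its counted exons are 104320 bases long, so it made up 13% to 60% of the set's counts in iWAT and 53.8% to 66.1% in the pituitary. The 12 genes typical of fast fibres (Actn3, Myh1, Myh2, Myh4, Mylpf, Myl1, Tnnt3, Tnni2, Tnnc2, Atp2a1, Pvalb and Mybpc2) summed to 561, 101, 194, 25 and 165 CPM in iWAT KO 31, 32, 35, 50 and 66 and to 146, 101, 163, 23.2 and 33.6 CPM in iWAT WT 33, 34, 48, 49 and 56. In the pituitary they summed to 14.2 to 19 CPM, below every fat library. In the low fat libraries this rested on Myl1: without it the other 11 genes summed to 7.39 CPM in KO 50, 11.2 CPM in WT 49 and 22.7 CPM in WT 56, against 14.2 to 18.9 CPM in the pituitary. Taken without Ttn the whole set averaged 495 ± 374 CPM in iWAT KO and 287 ± 107 CPM in iWAT WT, against 273 ± 21.2 CPM in pituitary KO and 240 ± 8.44 CPM in pituitary WT (SD, n = 5 each), so iWAT and pituitary still overlapped. The summed level of the 36 genes therefore did not separate fat from pituitary, and the fast fibre sum did so only with Myl1 in it.

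**Figure D2:**
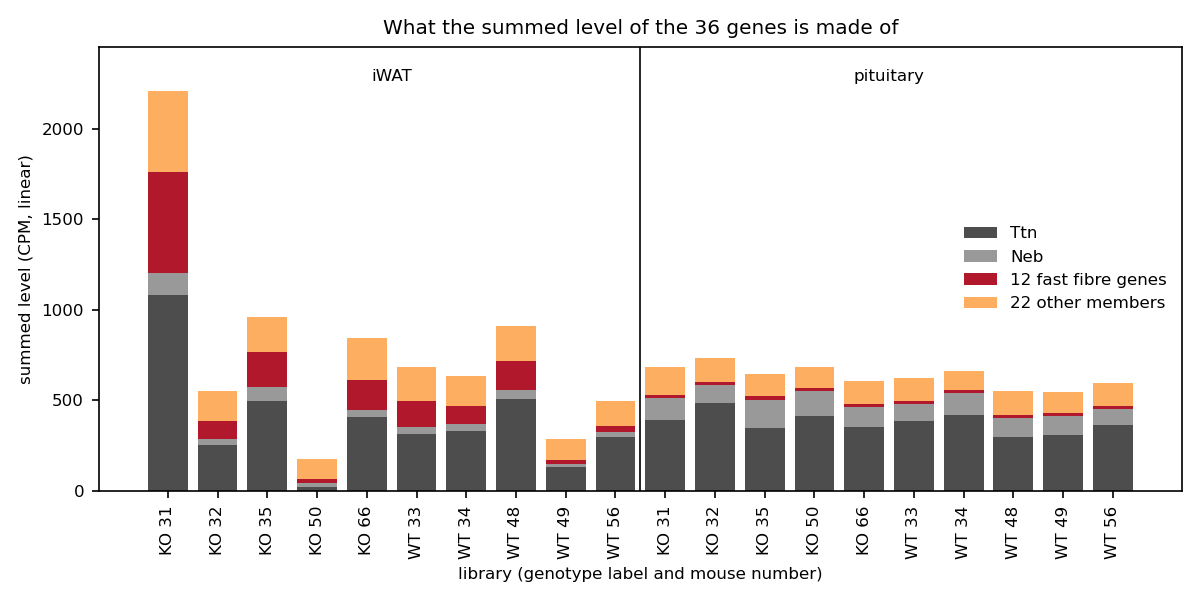
Summed level of the set in CPM (linear axis from 0) for each library, iWAT left of pituitary and KO left of WT, split into Ttn, Neb, the 12 fast fibre genes and the rest. The fast fibre part ranges from 23.2 to 561 CPM in iWAT and from 14.2 to 19 CPM in the pituitary, where Ttn and Neb fill most of each bar.

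Among the thin filament genes, Acta1 had 89.1, 25.8, 25.1, 11.2 and 63.5 CPM in iWAT KO 31, 32, 35, 50 and 66, against 37.4, 19.2, 18, 12.1 and 11.5 CPM in iWAT WT 33, 34, 48, 49 and 56. Its pituitary levels were 0.127 to 1.01 CPM in KO and 0.304 to 0.762 CPM in WT. Acta1 was therefore present in every fat library, and its lowest fat value was above its highest pituitary value. Tpm2, beta-tropomyosin, which lies along actin and is also made by smooth muscle, moved little, with 13.9 to 39.8 CPM in iWAT KO and 14.8 to 21.3 CPM in iWAT WT. Neb, nebulin, the ruler of the thin filament, had 20.2 to 121 CPM in iWAT KO and 19.2 to 49.1 CPM in iWAT WT, and 99.8 to 158 CPM in pituitary KO and 86.5 to 119 CPM in pituitary WT.

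Troponin has 3 subunits, each with a fast and a slow gene: T binds tropomyosin, I inhibits and C binds calcium. Tnnt3, the fast troponin T, had 41.3, 7.13, 15, 0.431 and 9.72 CPM in iWAT KO 31, 32, 35, 50 and 66 and 9.71, 7.41, 13.8, 1.83 and 2.3 CPM in iWAT WT 33, 34, 48, 49 and 56. Tnni2, the fast troponin I, had 19, 4.03, 5.95, 0.185 and 4.21 CPM in the same KO libraries and 5.17, 2.68, 6.31, 0.915 and 1.35 CPM in the WT libraries. Tnnc2, the fast troponin C, had 20.9, 2.11, 5.89, 0.308 and 4.27 CPM in KO and 4.42, 2.93, 4.84, 0.183 and 0.27 CPM in WT. The fast subunits kept nearly one order of libraries, with KO 31 on top and KO 50, WT 49 and WT 56 at the bottom. The slow subunits Tnnt1, Tnni1 and Tnnc1 stayed at or under 1.98, 1.18 and 1.28 CPM in every iWAT library.

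Per length, the fast gene held a median of 91.1% of Tnnt1 plus Tnnt3 in iWAT and 11% in the pituitary, and a median of 91.9% of Tnnc1 plus Tnnc2 in iWAT and 0% in the pituitary. For troponin I the medians were 97.4% and 97.6%, since Tnni2 was counted at 0.603 to 1.4 CPM in pituitary KO and 0.989 to 1.74 CPM in pituitary WT while Tnni1 was near 0 there. The fat medians did not hold in every library: on 10, 11 and 7 counts of both genes, Tnnc2 held 50.4% in KO 50, 27.6% in WT 49 and 57.5% in WT 56. On 6 counts, Tnni2 held 62.5% in KO 50.

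In the thick filament, Myh4, the myosin heavy chain of the fastest fibres, had the widest spread over the fat libraries of the 36 genes. It was counted at 238, 35.5, 82, 0.308 and 66 CPM in iWAT KO 31, 32, 35, 50 and 66, against 51.2, 28.6, 61.1, 0.061 and 0.135 CPM in iWAT WT 33, 34, 48, 49 and 56. These are 4448 counts in KO 31 and 5, 1 and 2 counts in KO 50, WT 49 and WT 56, whereas the pituitary libraries held 3 to 20 counts. In those 3 fat libraries Myh4 was therefore no higher than in the pituitary. They came from mice of 19, 19 and 18 weeks, while WT 48, also of 19 weeks, held 61.1 CPM of Myh4, and the part of age in this was not tested for single libraries. Myh1 and Myh2, the other fast heavy chains, had 0.739 to 33.1 and 1.05 to 18.8 CPM in iWAT KO, and 0.608 to 7.1 and 0.405 to 4.05 CPM in iWAT WT. Myh7, the heavy chain of slow fibres and heart ventricle, had 10.3 CPM in KO 31 and 0.122 to 1.32 CPM in the other 9 fat libraries, against 5.4 to 11.3 CPM in pituitary KO and 5.54 to 7.85 CPM in pituitary WT. Myh1, Myh2 and Myh4 lie side by side on chromosome 11 and are close in sequence, so reads could be divided among them wrongly.

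Per length, Myh4 made up 70.2% to 92.1% of the 4 heavy chains in 7 of the 10 fat libraries. In KO 50, WT 49 and WT 56 it made up 12.2%, 2.64% and 7.42%, on 41, 38 and 27 counts of all 4 genes, and Myh1, Myh2 and Myh7 held the rest. In the pituitary Myh7 held 81.7% to 88.1%.

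**Figure D3:**
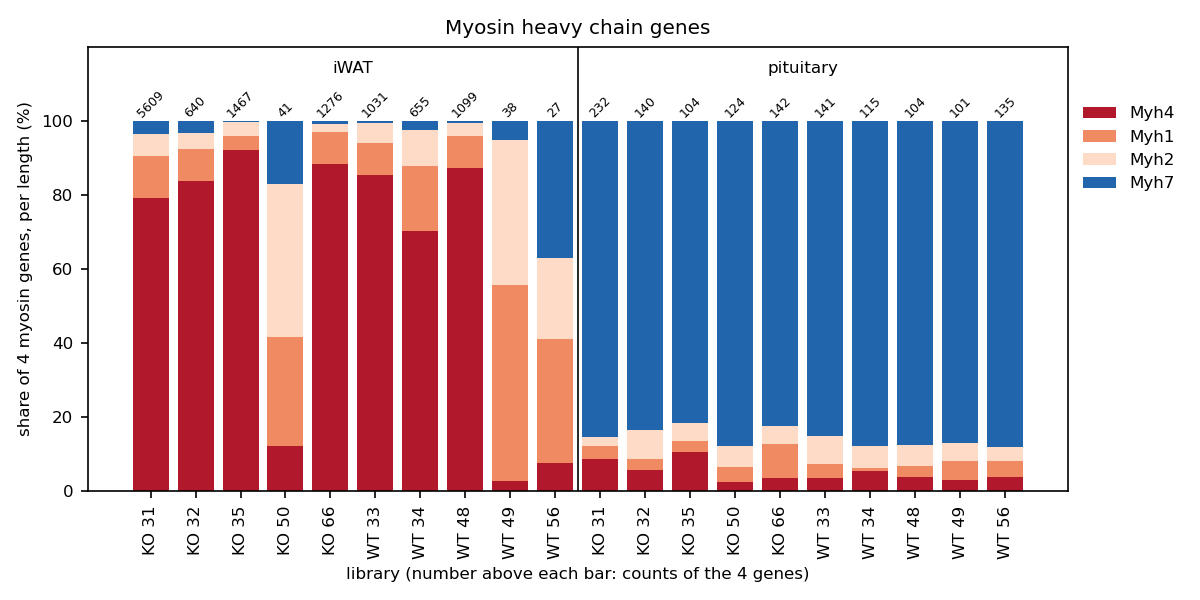
Share of Myh4, Myh1, Myh2 and Myh7 among these 4 heavy chain genes per length, in percent, for each library (iWAT left of pituitary, KO left of WT), with the counts behind each bar above it. Myh4 holds at least 70.2% in 7 fat libraries and at most 12.2% in KO 50, WT 49 and WT 56, and Myh7 holds at least 81.7% in every pituitary library.

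The light chains behaved differently from each other. Myl1, the essential light chain of fast fibres, had 38.4, 18.2, 20, 17.6 and 21.7 CPM in iWAT KO 31, 32, 35, 50 and 66, against 28, 13.8, 13.1, 12 and 10.9 CPM in iWAT WT 33, 34, 48, 49 and 56, and at most 0.201 CPM in any pituitary library. KO 50, with 5 counts of Myh4, held nearly as much Myl1 as KO 32. Mylpf, the fast regulatory light chain, followed Myh4 instead, with 15.6 CPM in KO 31, 0.493 CPM in KO 50 and 1.1 CPM in WT 49. Myl2, the slow and cardiac regulatory light chain, had 1.07 CPM in KO 31 and at most 0.176 CPM in the other fat libraries. Mybpc1 and Mybpc2, the slow and fast myosin binding proteins C, had 0.431 to 11 and 0.246 to 21.4 CPM in iWAT KO, and 1.59 to 3.95 and 1.16 to 13.5 CPM in iWAT WT.

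Of the Z-disc and scaffold genes, Ttn had 1080, 254, 496, 22.5 and 407 CPM in iWAT KO 31, 32, 35, 50 and 66, against 314, 328, 507, 130 and 298 CPM in iWAT WT 33, 34, 48, 49 and 56. In the pituitary it had 389, 485, 346, 413 and 351 CPM in KO 31, 32, 35, 50 and 66 and 385, 421, 297, 308 and 365 CPM in WT 33, 34, 48, 49 and 56. KO 31, KO 35 and WT 48 lay above the pituitary range, KO 32, KO 50 and WT 49 lay below it, and WT 56 held 298 CPM of Ttn with 2 counts of Myh4. Des, desmin, the intermediate filament that ties Z-discs together and is also made by smooth muscle, had 55, 30.5, 35.5, 16.6 and 35.4 CPM in the KO libraries and 31.2, 29.8, 36.8, 25.2 and 36.8 CPM in the WT libraries of iWAT. Actn2 and Actn3 are alpha-actinins that crosslink actin at the Z-disc. Actn3, the fast fibre form, had 0.431 to 22.4 CPM in iWAT KO and 0.122 to 4.91 CPM in iWAT WT. Its pituitary levels were 0.736 to 1.02 CPM in KO and 0.697 to 1.58 CPM in WT, so the tissues overlapped. Actn2 did split by tissue, with at most 4.71 CPM in fat, against 16.7 to 25.5 CPM in pituitary KO and 16.9 to 24.7 CPM in pituitary WT.

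Xirp2, an actin binding protein of muscle attachment sites, had 23 CPM in KO 31, 0.246 CPM in KO 50 and 0 counts in WT 49 and WT 56. The limit that 0 counts allow is 3 counts, or 0.183 CPM in WT 49 and 0.203 CPM in WT 56. Myoz1, a calcineurin binding Z-disc protein, had 4.44 CPM in KO 31 and at most 2 CPM in the other fat libraries. Ldb3, a Z-disc adaptor, differed little anywhere, with 4.03 to 6.8 CPM in iWAT KO and 3.24 to 5.36 CPM in iWAT WT, against 3.81 to 5.45 CPM in pituitary KO and 4.14 to 5.78 CPM in pituitary WT.

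Among the calcium handling genes, Atp2a1, the fast fibre pump that returns calcium to the sarcoplasmic reticulum, had 75.1, 12.9, 27.2, 3.08 and 26.3 CPM in iWAT KO 31, 32, 35, 50 and 66, against 19.4, 17, 25, 3.66 and 8.51 CPM in iWAT WT 33, 34, 48, 49 and 56. It was counted at 5.37 to 8.58 CPM in pituitary KO and 6.62 to 10 CPM in pituitary WT, so KO 50 and WT 49 lay below the pituitary. Pvalb, the calcium buffer parvalbumin, had 16.6 CPM in KO 31, 0.123 CPM in KO 50 and 0 counts in WT 49 and WT 56. Trdn, triadin, which anchors calsequestrin at the release channel, had 6.26 CPM in KO 31, 0.0616 CPM in KO 50 and 0 counts in WT 49 and WT 56. Ryr1, the release channel, had 1.48 to 24.6 CPM in iWAT KO and 1.4 to 8.67 CPM in iWAT WT, and Casq1, the calcium store calsequestrin, had 1.52 to 6.63 CPM and 1.83 to 4.42 CPM.

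Of the energy and oxygen genes, Ckm, the muscle creatine kinase that regenerates ATP, had 52.2, 9.38, 14.3, 0.185 and 9.48 CPM in iWAT KO 31, 32, 35, 50 and 66, against 8.08, 6.41, 16.1, 0 and 0.27 CPM in iWAT WT 33, 34, 48, 49 and 56. In the pituitary it had 1.02 to 1.53 CPM in KO and 0.767 to 1.78 CPM in WT, above KO 50, WT 49 and WT 56. Mb, myoglobin, which stores oxygen, did not follow this order, with 23, 20.5, 17.7, 33 and 25.3 CPM in the KO libraries and 27.3, 21.7, 8.98, 24.9 and 19.3 CPM in the WT libraries of iWAT. KO 50, the lowest library for 17 of the 36 genes, was highest for Mb. Pgam2, the muscle phosphoglycerate mutase, had 8.88, 3.3, 6.92, 2.03 and 3.98 CPM in KO and 3.31, 5.92, 9.81, 3.48 and 5.81 CPM in WT, with its highest value in WT 48. Eno3, the muscle enolase, had 12.8 to 38.3 CPM in iWAT KO and 16.3 to 33 CPM in iWAT WT, and Pygm, the muscle glycogen phosphorylase mutated in McArdle disease, had 4.81 to 31 CPM and 5.98 to 18.4 CPM. Ckmt2, the creatine kinase of muscle mitochondria, had 0.308 to 3.96 CPM and 0.541 to 0.988 CPM.

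Across the 36 genes, KO 31 was the highest fat library for 34, the exceptions being Mb and Pgam2. KO 50 was the lowest for 17, WT 56 for 8 and WT 49 for 7. The highest over the lowest fat library, with values under 3 counts set to 3 counts, was over 20 for 19 genes, between 5 and 20 for 9 genes and under 5 for 8 genes, with a median of 24.2. The 8 even genes were Tpm2, Myl1, Des, Ldb3, Casq1, Mb, Eno3 and Pgam2. The set therefore did not move as 1 unit in fat: Myh4, Ckm, Pvalb, Trdn and Xirp2 had at most 5 counts each in KO 50, WT 49 and WT 56, while Acta1, Myl1, Mb, Des and Tpm2 stayed above 8 CPM in all 10 fat libraries.

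Per length, the levels in iWAT were led by Acta1 with a mean of 19.9 RPKM, Mb with 17.7 RPKM, Myl1 with 17.4 RPKM, Eno3 with 15.3 RPKM and Des with 10.9 RPKM, and Myh4 averaged 9.32 RPKM. Ttn, first by CPM, was 17th per length with 3.67 RPKM. In the pituitary Eno3 led with 27.3 RPKM, followed by Actn2 with 7.17 RPKM, Neb with 5.06 RPKM, Pygm with 4.93 RPKM, Tnnt1 with 4 RPKM and Ttn with 3.6 RPKM. Acta1 and Myl1 averaged 0.28 and 0.0988 RPKM there. The order of the first 4 in iWAT is not firm: by median, Mb had 17.8 RPKM, Myl1 16.1 RPKM, Eno3 15.6 RPKM and Acta1 14.1 RPKM, and their ranges overlapped.

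**Figure D4:**
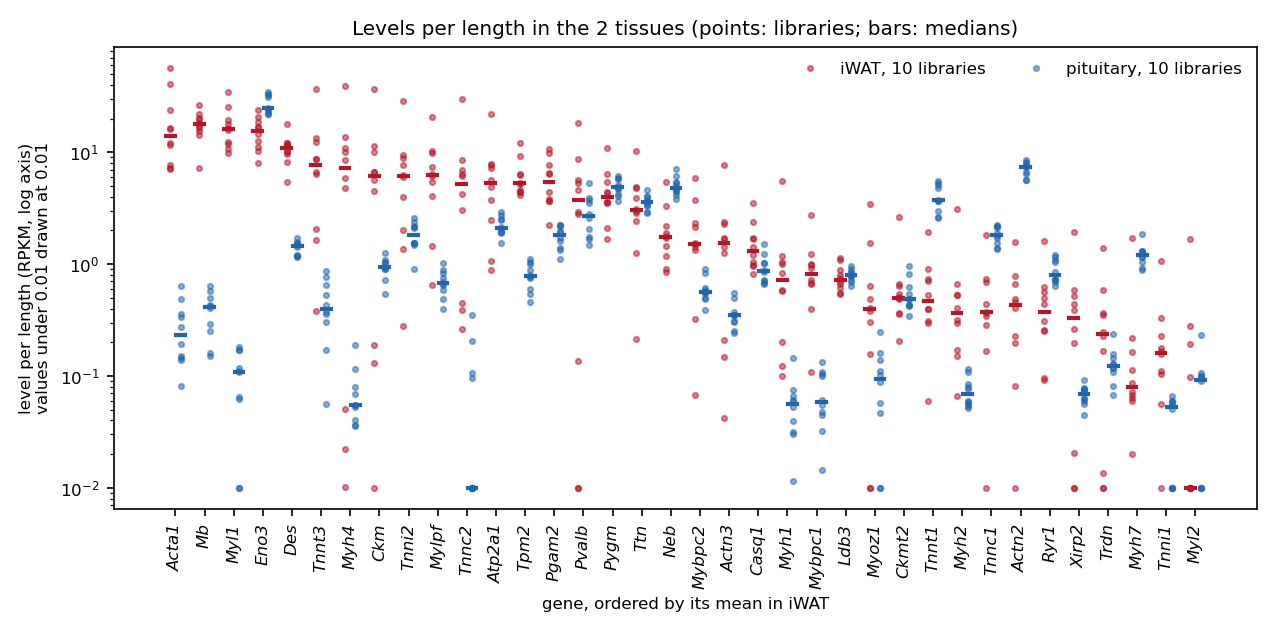
Level per length in RPKM (log axis, values under 0.01 drawn at 0.01) of each of the 36 genes in 10 iWAT libraries (left of each pair) and 10 pituitary libraries (right), points being libraries and bars medians. Acta1, Mb, Myl1, Des, Tpm2 and Pgam2 lie higher in every iWAT library than in any pituitary library, and Actn2 and Tnnt1 lie lower.

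Whether the set differed between iWAT and the pituitary was tested in 1 fit over all 20 libraries with edgeR's quasi-likelihood test and Benjamini-Hochberg adjustment over 17731 genes. Of the 33 genes of the set that passed the filter on low counts, 20 were higher and 7 were lower in iWAT at an adjusted p under 0.05, beside 43.3% higher and 41.2% lower (84.5% called in all) of all genes tested. Genes counted in fat alone passed that filter through fat, so the count describes the 33 genes and is no support for a shift. Tnni1, Myl2 and Myoz1 were too low to be tested. The median log2 difference was 1.84, beside 0.04 over all genes.

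The fast fibre list carried the higher side, with 11 of 12 genes higher in iWAT and 0 lower. Of that list 5 genes passed the filter in the pituitary alone. Tnnt3, Tnnc2, Myh1, Myh2, Myh4, Mylpf, Myl1, Acta1, Mb and Mybpc1 did not, so their entry rested on fat. Tnnt1, Tnnc1 and Myh7 did not pass it in iWAT alone. The p-values of these genes describe their levels and are no support for a shift. Myl1 differed by 7.47 ± 0.33 (log2, SE, edgeR adjusted p = 9.51e-14), Myh4 by 6.92 ± 1.04 (adjusted p = 4.82e-06) and Tnnc2 by 6.36 ± 0.92 (adjusted p = 2.71e-06). Acta1 differed by 6.18 ± 0.44 (edgeR adjusted p = 9.67e-11), Mb by 5.68 ± 0.28 (adjusted p = 3.22e-13) and Ckm by 3.05 ± 0.71 (adjusted p = 0.000578). The lower side held Actn2 at -3.77 ± 0.39 (edgeR adjusted p = 2.69e-08), Myh7 at -2.54 ± 0.50 (adjusted p = 9.90e-05), Tnnt1 at -2.54 ± 0.33 (adjusted p = 8.54e-07), Tnnc1, Neb, Ryr1 and Eno3. Of the slow fibre list 4 genes were tested, of which Tnnt1, Tnnc1 and Myh7 were lower and Mybpc1 was higher in iWAT.

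Trdn, Ckmt2, Ldb3, Pvalb, Pygm and Ttn did not pass. For Ttn the difference was 0.10 ± 0.36 (edgeR adjusted p = 0.794) and for Pygm 0.01 ± 0.21 (adjusted p = 0.977). All 10 fat libraries lay above all 10 pituitary libraries for Acta1, Des, Mb, Myl1, Pgam2 and Tpm2 and below them for Actn2 and Tnnt1, 8 of 33 genes, beside 54.5% of all genes tested without overlap between the tissues. Smooth muscle genes were also higher in iWAT, 9 of 9 on the list, as were Des and Tpm2. The smooth muscle sum was 359 to 683 CPM in iWAT KO and 380 to 620 CPM in iWAT WT, against 102 to 128 CPM in pituitary KO and 110 to 135 CPM in pituitary WT. Its part in the levels of Des and Tpm2 was not tested.

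Whether the KO label went with more or less of the set in fat was tested over the 10 iWAT libraries and 16105 genes. No gene of the set was called: 0 of the 30 that passed the filter at an adjusted p under 0.05, beside 0% of all genes tested. At an unadjusted p under 0.05 edgeR found 0 of the 30 and 89 of all genes, and DESeq2 called 0 genes and found 127. Tnnt1, Tnni1, Tnnc1, Myh7, Myl2 and Myoz1 were too low to be tested. Fold changes were positive for 29 of 30 genes, with a median of 0.66 on the log2 scale beside 0.00 over all genes, and Pgam2 was the exception at -0.16 ± 0.38.

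The largest fold changes had wide errors. Trdn differed by 1.76 ± 1.04, Myh4 by 1.54 ± 1.42, Xirp2 by 1.52 ± 1.18, Actn3 by 1.48 ± 0.94 and Ckm by 1.46 ± 1.22 (log2 KO over WT, SE). Acta1 differed by less, 1.09 ± 0.53, and none of these genes passed edgeR's test. In 0 of the 30 genes did the KO and WT libraries not overlap, beside 0.0683% of all genes. The positive side rested on library KO 31: without it the median was 0.16 and 17 of 30 genes were positive, and Des, Myh1 and Myh2 turned to -0.077, -0.17 and -0.14. With age as a covariate the median was 0.08 with 16 of 30 positive, whereas among mice of 21 weeks alone it was 0.72 with 30 of 33 tested genes positive. With the age covariate, Myh4, Tnnt3, Tnni2 and Des turned to -0.48, -0.095, -0.031 and -0.029. Age moved with the label, since 4 of 5 KO mice and 2 of 5 WT mice were 21 weeks old.

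In the pituitary 22 of the 36 genes passed the filter, and 0 were called between the labels, beside 0.549% of 16389 genes (0.415% higher and 0.134% lower). Fold changes were positive for 11 and negative for 11, with a median of -0.01 beside 0.00 over all genes. By edgeR, 4 of the 22 had an unadjusted p under 0.05, namely Pvalb, Pygm, Neb and Mybpc2, beside 1792 of the 16389 genes. Pvalb had 2.33, 3.17, 4.77, 3.53 and 3.35 CPM in pituitary KO 31, 32, 35, 50 and 66, against 1.59, 2.51, 1.34, 1.85 and 1.52 CPM in pituitary WT 33, 34, 48, 49 and 56, which overlapped only between KO 31 and WT 34. Its fold change was 0.98 ± 0.23 (edgeR adjusted p = 0.0852), and it passed with DESeq2 (adjusted p = 0.0159) and without KO 31 in edgeR (adjusted p = 0.0496). Pygm had 17.4, 16.3, 13.3, 14.6 and 16.9 CPM in KO and 13.6, 10.5, 12.1, 11.6 and 14 CPM in WT, a fold change of 0.36 ± 0.09 (edgeR adjusted p = 0.113, DESeq2 adjusted p = 0.0378). In 0 of the 22 genes were the KO and WT libraries without overlap, beside 2.55% of all genes.

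The difference of the label effect between tissues was tested as iWAT minus pituitary. No gene of the set passed, beside 0% of 17731 genes, with 1 of 33 genes of the set and 427 of all genes at an unadjusted p under 0.05 in edgeR. DESeq2 called 1 gene, which was not of the set.

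Which other genes moved with the set in fat was asked by a slope per log2 unit of the summed CPM of the 36 genes over the 10 iWAT libraries, with the label as a term and with the set left out of the counts. Of a list of 50 further skeletal muscle genes, 32 passed the filter, and 14 rose and 1 fell along the set, beside 19.6% and 17.8% (37.4% in all) of 16075 genes. Those that rose included Cacna1s, the voltage sensor of the fibre membrane, at 1.32 ± 0.26 (edgeR adjusted p = 0.0048), Tcap, the titin cap, at 1.28 ± 0.20 (adjusted p = 0.00226), Scn4a, the muscle sodium channel, at 1.28 ± 0.19 (adjusted p = 0.00172), and Myom2, an M-line protein, at 1.56 ± 0.22 (adjusted p = 0.00164). Cacna1s had 7.38, 2.44, 3.09, 0.246 and 3.57 CPM in iWAT KO 31, 32, 35, 50 and 66, against 2.33, 1.74, 2.48, 0.061 and 1.15 CPM in iWAT WT 33, 34, 48, 49 and 56. Its order of libraries was close to that of Myh4, with KO 31 on top and KO 50 and WT 49 at the bottom. Mybph, a myosin binding protein H, fell by 0.47 ± 0.08 (edgeR adjusted p = 0.00244), with 23.8 CPM in KO 50 and 8.13 CPM in KO 31. Its counted exons share 662 bases with Adora1 on the opposite strand. Reads there cannot be told apart from those of Adora1, so the fall may not be that of Mybph.

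Other cell type lists moved along with the set, so the slope does not single out muscle. All 11 lymph node genes tested rose and 8 of 10 adipocyte genes and 6 of 6 blood genes fell along it, and 3 of 5 tendon genes rose. Along the mean log2 CPM of the set 1 of 11 lymph node genes rose, along the sum without Ttn 0 and along the fast fibre sum 1. Their median slopes stayed positive, at 1.10, 1.22 and 0.71. Of the 32 further muscle genes 14, 13 and 14 rose along these levels and 1 fell each time. Beside them, 1707, 1561 and 1273 of all 16075 genes rose and 1896, 1891 and 1521 fell. Of the adipocyte genes 5, 6 and 4 fell, and all 6 blood genes fell each time. The lymph node sum was 1351, 581, 1019, 17.7 and 915 CPM in iWAT KO 31, 32, 35, 50 and 66, against 679, 769, 1352, 285 and 1121 CPM in iWAT WT 33, 34, 48, 49 and 56. KO 50, the library with the least of the set, was also the library with the least lymph node signal and the most adipocyte signal, with an adipocyte sum of 29390 CPM against 10290 CPM in KO 31. With the lymph node sum as a further covariate 0 of the 32 further muscle genes and 1 of all genes passed, although the slopes of the muscle genes did not shrink on the whole. Their median was 0.22 with that covariate, against 0.18 without it, and Tcap stood at 1.69 ± 0.41 (edgeR adjusted p = 0.468). Without KO 50, 1 of the further muscle genes and 144 of all genes passed, and without both KO 50 and KO 31, the libraries farthest from the median, 0 and 0 passed. Leaving out extreme libraries narrows the range of levels, so the lost calls do not show that the relation rests on those libraries. Without both, 3365 genes still had an unadjusted p under 0.05 in edgeR, against 7840 with all 10 libraries. Without KO 50 alone these were 4467 genes and without KO 31 alone 6706. Lymph node, adipocyte and muscle genes were not told apart along the summed level. Along the other levels most lymph node calls were lost while most muscle calls stayed. Calls over all genes fell as well, from 3155 that rose along the summed level. The lymph node median slopes stayed above those of the further muscle genes, which were 0.13, 0.16 and 0.09. The lost calls therefore do not show that lymph node and muscle genes part.

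The lymph node and fast fibre signals did part in single libraries. WT 56 held a lymph node sum of 1121 CPM, behind only KO 31 and WT 48, with 33.6 CPM of the fast fibre genes, and KO 31 and WT 48 held nearly equal lymph node sums of 1351 and 1352 CPM with 561 and 163 CPM of the fast fibre genes.

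**Figure D5:**
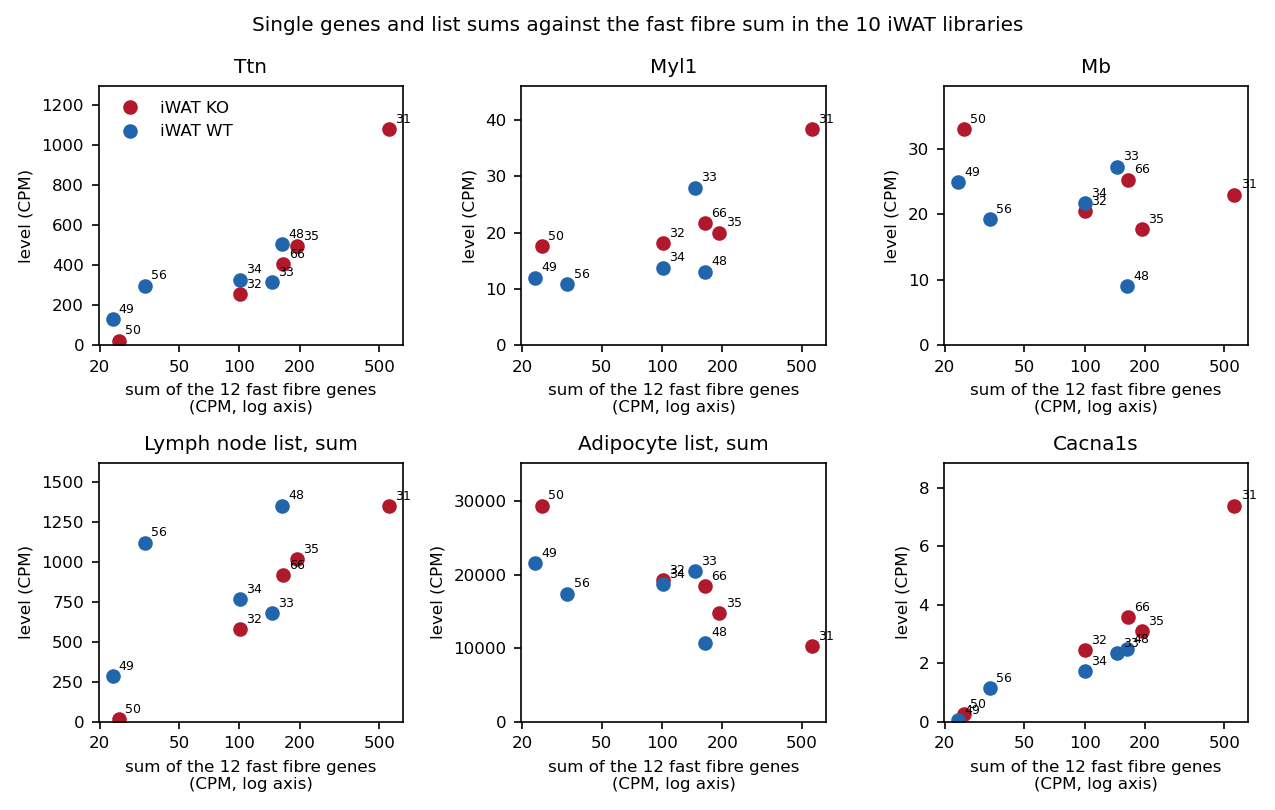
Levels of Ttn, Myl1 (itself in the sum), Mb and Cacna1s and sums of the lymph node and adipocyte lists, all in CPM from 0, against the sum of the 12 fast fibre genes (CPM, log axis) in the 10 iWAT libraries, KO and WT in different colours with mouse numbers. Ttn and Cacna1s are highest in KO 31 at 1080 and 7.38 CPM, Mb is highest in KO 50 at 33 CPM, and the lymph node sum is 1121 CPM in WT 56 at a fast fibre sum of 33.6 CPM.

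Markers of other muscle states were also read in fat. The 10 satellite cell and myogenic factor genes summed to 0.850 to 2.19 CPM in iWAT KO and 0.637 to 2.09 CPM in iWAT WT, with Myod1 and Myog, which switch on the muscle program, at no more than 0.349 and 0.198 CPM. The embryonic and neonatal isoforms summed to 4.31 to 9.10 CPM in KO and 2.99 to 8.14 CPM in WT, of which Myh8, the perinatal heavy chain, had 3.75 CPM in KO 31 and at most 1.1 CPM elsewhere. The 10 cardiac genes summed to 10.17 to 14.86 CPM in iWAT KO and 9.96 to 14.2 CPM in iWAT WT, against 9.91 to 19.3 CPM in pituitary KO and 9.20 to 13.5 CPM in pituitary WT, so the tissues overlapped. Tnni3, the cardiac troponin I, had 1.54 to 5.54 CPM in fat, whereas Nkx2-5 and Nppb had at most 0.066 CPM each. Mybpc3, the cardiac myosin binding protein C, had 0.739 to 3.4 CPM in fat and was the 1 of 4 cardiac genes tested that rose along the set, at 0.55 ± 0.14 (edgeR adjusted p = 0.0134).

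Some of the 36 genes share exon bases with a gene on the opposite strand in the annotation used for counting, and the file headers give no strand option, so their reads cannot be told apart from those of the partner. These are Neb with 4930573O16Rik over 57 bases, Myh7 with D830015G02Rik over 463 bases, Des with Gm15179 over 222 bases, Atp2a1 with Rabep2 over 48 bases, Ckm with A930016O22Rik over 451 bases and Mb with Apol6 over 62 bases. The values of these 6 genes are to that extent uncertain. In GENCODE M21 opposite-strand exons also share bases with other genes of the set, among them Tnnc2 (Ube2c, 592 bases), Ryr1 (Gm26604, 763 bases) and Myh1 (Myhas, 515 bases). They share more bases with Atp2a1 (Rabep2, 761 bases) and Mb (Gm49540, 412 bases). The values of these genes are uncertain in the same way.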

How the data were processed

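The members and all gene lists were chosen with earlier results of these data known. The deposited tables hold raw read counts. Per the file headers, the authors ran featureCounts on exons of an mm10 annotation, used primary alignments alone and let a read count for every gene it overlaps. STAR 2.4.0, featureCounts 1.4.4, mm10 and GRCm38 are named in the submitters' processing notes. No pair of libraries within a group agreed within sampling noise, so all 20 were kept.

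From the counts, CPM used the library total, RPKM the exon length in the files, and intervals and the floor of 3 counts cover counting error only. Tests were edgeR 4.0.16 in R 4.3.3 (filterByExpr, TMM, robust quasi-likelihood, Benjamini-Hochberg over all genes, threshold 0.05), each tissue alone for KO over WT, all 20 libraries for iWAT over pituitary and for the difference of effects, and the 10 iWAT libraries for slopes along the log2 summed CPM of the set. No covariate other than the label was used. DESeq2 1.42.0, RLE scaling, no filter, age as a covariate, 21-week mice only, leaving the set out of the scaling, other forms of the level, a replicate block and leaving out each library were the alternatives. Fits were tested on simulated counts.

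Named were all 36 genes: per library the leader of each role per length in iWAT, the 4 heavy chains, the troponins and those whose highest fat library was not KO 31, others by range. Genes named beyond this, such as Ckm, Pvalb and the further muscle genes with values, were chosen after their values were seen or because they passed the threshold. Lists were matched by symbol or synonym; Ighm had no match. Deviations of same-numbered libraries of the tissues correlated at -0.059 to 0.095, with 0 of 10 pairs over 0.1. Tissues of the same mouse need not deviate together, so these correlations cannot decide whether a shared number marks a shared animal.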

Additional observations from a re-analysis of the deposited data

Results flagged for a closer look

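A gap test was run on 122 sets of values in groups of 5 libraries, each set with a highest value of at least 1 CPM. For normal, independent values it is met in about 1 in 20 sets, or 6.1 sets here. Genes share libraries, and the cut-off lets in sets through 1 high library, so that number is no measure of chance here. In 13 of the 122 sets 1 library lay far from the other 4. Of these, 10 were iWAT KO 31 standing above the other KO libraries: Tnni1 at 1.18 CPM, Tnnc1 at 1.28 CPM, Tnnc2 at 20.9 CPM, Myh1 at 33.1 CPM, Myh2 at 18.8 CPM, Myh7 at 10.3 CPM, Myl1 at 38.4 CPM, Myl2 at 1.07 CPM, Ckm at 52.2 CPM and Ckmt2 at 3.96 CPM. The genes share that library, so these are not 10 separate events. The flagged genes held slow fibre genes (Tnni1, Tnnc1, Myh7 and Myl2) as well as fast ones. Tnni1, Tnnc1 and Myl2 reached the cut-off of 1 CPM in KO 31 alone. Their flags are therefore no support for slow fibre genes standing apart there. iWAT WT 33 stood above the other WT libraries for Myl1 at 28.0 CPM. In the pituitary, KO 66 stood apart for Acta1 at 1.01 CPM and WT 48 for Eno3 at 49.6 CPM. Acta1 reached the cut-off there through KO 66 alone.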

How the results depend on the processing

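Between the labels in iWAT, 0 genes of the set and 0 of all genes were called under every alternative run. Fold changes of single genes turned sign with age as a covariate (Des -0.029, Myh4 -0.48, Tnnt3 -0.095, Tnni2 -0.031), with 21-week mice only (Mb -0.24), and in the ranges over leaving out each library for Des (-0.077 to 0.27), Myh1 (-0.17 to 1.51) and Myh2 (-0.14 to 1.55), where KO 31 gave the lower end. In the pituitary 90 genes were called, 288 with DESeq2, 44 with age as a covariate, 5 with 21-week mice only and 50 to 112 without each library. Genes of the set called there were 2 with DESeq2 (Pvalb and Pygm) and 0 to 1 without each library. Des turned to 0.040 with age and to 0.041 with 21-week mice, and over leaving out each library Des ranged from -0.10 to 0.022, Tnnt1 from -0.014 to 0.25 and Tnnc1 from -0.074 to 0.11. For the difference of effects DESeq2 called 1 gene. Slopes in iWAT (6020 genes and 15 further muscle genes) gave 3603 genes with the mean log2 CPM as the level, 3452 without Ttn, 2794 with the fast fibre genes, 1 and 0 with the lymph node sum added, 0 and 0 without the 2 farthest libraries, and 144 to 6813 and 1 to 18 without each library, KO 50 giving the low ends. Group means of the summed level moved without Ttn to 287 (iWAT WT), 273 (pituitary KO) and 240 CPM (pituitary WT), with the fast fibre genes alone to 93.3, 16.6 and 17.6 CPM, and with these without Myl1 to 77.7, 16.5 and 17.5 CPM. Levels without Ttn, of the fast fibre genes with and without Myl1 and with the lymph node sum were added after seeing the data, as was leaving out each library for the summed level. The causes were not tested.

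With the mouse number as a replicate block, 14880 genes and 27 genes of the set were called between iWAT and pituitary, against 14976 and 27, so the block changed no call count by over 1.5 times, and 3 of 10 libraries correlated best with their own number. At 14.8 to 18.7 M counts, slow fibre genes at 0 to 3 counts in fat were not measurable one by one.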

Other observations

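The pituitary held other genes known from skeletal muscle. Ky, a muscle maintenance gene, had at most 0.856 CPM in fat and 16.8 to 31.2 CPM in the 10 pituitary libraries. Klhl41, a sarcomere assembly gene, had at most 2.84 CPM in fat and 10.3 to 15.4 CPM in the pituitary. Pax7, the satellite cell transcription factor, had at most 0.233 CPM in fat and 20 to 36.4 CPM in the pituitary. Megf10, a receptor of satellite cells, had 32.7, 31.7, 35.1, 31.6 and 33 CPM in pituitary KO 31, 32, 35, 50 and 66, against 69.6, 55.2, 40.6, 53.9 and 58.2 CPM in pituitary WT 33, 34, 48, 49 and 56. All KO libraries lay below all WT libraries, beside 2.55% of 16389 genes without overlap between the labels. The fold change was -0.74 ± 0.10 (log2 KO over WT, SE, edgeR adjusted p = 0.00661), beside 0.549% of all genes called. Megf10 was 1 of 2 satellite cell and myogenic factor genes tested in the pituitary, the other being Pax7 at 0.23 ± 0.14 (adjusted p = 0.588 in edgeR), and 0 of 25 further muscle genes and 0 of 7 cardiac genes passed there.

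iWAT KO 32 held 114 CPM of pituitary hormone genes, against 0.793 to 1.93 CPM in the other fat libraries.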
